A study of Mus musculus with 4 samples.

Results

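The RNA of 30 genes that act in S phase, G2 and mitosis was followed in whole mouse pancreas at E18.5, shortly before birth, in 2 Rest pKO and 2 control libraries. The genes were chosen by symbol from the table of counts per gene. All 30 were found among its 24391 genes, and all 30 passed the filter on low counts, as 14550 genes did in all. Of the 30, 13 are S-phase genes (*Mcm2* to *Mcm7*, *Pcna*, *Rrm2*, *Tyms*, *Cdc45*, *Gins2*, *Ccne1* and *Ccne2*). The other 17 are G2/M genes (*Mki67*, *Top2a*, *Cdk1*, *Ccna2*, *Ccnb1*, *Ccnb2*, *Aurka*, *Aurkb*, *Bub1*, *Birc5*, *Plk1*, *Foxm1*, *Cdc20*, *Ube2c*, *Kif11*, *Nusap1* and *Tpx2*). Rest pKO embryos were labelled Pdx1Cre RESTLoxP/LoxP and control embryos Pdx1Cre RESTwt, so that both groups carry the Cre transgene, and all were of a mixed strain background with C57BL/6. *Pdx1*-Cre acts in the pancreatic epithelium, and mesenchyme, vessels and blood cells of a Rest pKO pancreas keep the gene. In RNA of a whole organ, fewer cycling cells and less RNA of these genes per cycling cell cannot be told apart.

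Cycling cells express these genes in waves. At the entry to S phase, cyclin E with its kinase and the E2F factors act on genes of DNA replication, and the MCM hexamer, loaded on origins in G1, is turned into the active helicase by CDC45 and the GINS complex. In G2 and mitosis, cyclins A and B with CDK1, the Polo and Aurora kinases and the anaphase-promoting complex carry the cell to division. Many genes of this later wave are held down in resting cells and switched on in G2 by MuvB complexes, which bind a promoter element called the CHR, and by FOXM1, while CCAAT boxes bind NF-Y. In the fetal pancreas, progenitors, young acinar and endocrine cells, mesenchyme and blood-forming cells can all divide, whereas progenitors that reach high levels of NEUROG3 mostly leave the cell cycle.

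The letters around the start sites of both classes are shown first, since they were not used to choose or divide the genes. Windows of 300 bases, 250 before and 50 after a RefSeq start site (GRCm38.p6), were found for 23 of the 30 genes, in 11 windows for S-phase and 13 for G2/M genes. The CHR letters TTTGAA or TTCGAA, searched on both strands, stood in 10 of the 13 G2/M windows and in 3 of the 11 S-phase windows, against 19.2% of all 32851 windows. The E2F letters TTTCCCGC, TTTCGCGC, TTTGCCGC or TTTGGCGC stood in 1 of the 13 G2/M windows (*Cdk1*) and in 4 of the 11 S-phase windows (*Mcm3*, *Mcm5*, *Mcm6* and *Mcm7*), against 2.26% of all windows. CCAAT was found in 11 G2/M and 9 S-phase windows, against 37.4% of all. A match is a description of the letters and not a bound site. Windows of 3 G2/M and 2 S-phase genes are printed from 5′ to 3′ along the gene, with every match in capitals. The first 3 belong to G2/M genes that lay below the controls in both Rest pKO libraries, and the last 2 to S-phase genes with E2F letters. *Ccnb1* and *Nusap1*, not printed, also lay below the controls in both Rest pKO libraries. The window of *Ccnb1* held 2 CCAAT and 0 CHR matches, and that of *Nusap1* held 0 matches to any of the motifs. *Cdk1*, *Cdc20*, *Aurka* and *Ccnb2* held CHR letters and had log2 fold changes (Rest pKO over control) above 0, at 0.21, 0.21, 0.20 and 0.12. *Kif11*, *Plk1* and *Ube2c* held CHR letters and lay below 0, at −0.18, −0.069 and −0.089. *Mki67* lies at chr7:135716330-135716629, *Top2a* at chr11:99024140-99024439, *Bub1* at chr2:127831810-127832109, *Mcm6* at chr1:128359656-128359955 and *Mcm7* at chr5:138171834-138172133, each on the minus strand.
Mki67: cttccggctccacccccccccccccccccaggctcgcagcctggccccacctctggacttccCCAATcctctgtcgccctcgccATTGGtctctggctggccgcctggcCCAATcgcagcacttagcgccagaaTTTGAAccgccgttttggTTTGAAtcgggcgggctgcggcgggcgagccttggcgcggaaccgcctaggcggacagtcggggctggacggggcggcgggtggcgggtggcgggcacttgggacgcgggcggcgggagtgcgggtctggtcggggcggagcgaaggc
Top2a: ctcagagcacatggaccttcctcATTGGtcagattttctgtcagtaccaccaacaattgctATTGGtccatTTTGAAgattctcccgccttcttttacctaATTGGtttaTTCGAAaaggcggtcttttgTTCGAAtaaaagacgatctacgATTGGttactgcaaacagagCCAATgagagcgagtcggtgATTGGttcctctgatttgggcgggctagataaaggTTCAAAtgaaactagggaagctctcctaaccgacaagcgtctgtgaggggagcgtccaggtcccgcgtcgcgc
Bub1: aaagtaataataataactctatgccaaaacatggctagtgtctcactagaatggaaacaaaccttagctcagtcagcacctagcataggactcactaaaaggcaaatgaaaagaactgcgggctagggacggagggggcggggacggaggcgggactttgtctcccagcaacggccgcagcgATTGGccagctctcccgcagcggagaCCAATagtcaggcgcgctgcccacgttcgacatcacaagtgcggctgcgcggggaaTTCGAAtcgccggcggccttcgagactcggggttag
Mcm6: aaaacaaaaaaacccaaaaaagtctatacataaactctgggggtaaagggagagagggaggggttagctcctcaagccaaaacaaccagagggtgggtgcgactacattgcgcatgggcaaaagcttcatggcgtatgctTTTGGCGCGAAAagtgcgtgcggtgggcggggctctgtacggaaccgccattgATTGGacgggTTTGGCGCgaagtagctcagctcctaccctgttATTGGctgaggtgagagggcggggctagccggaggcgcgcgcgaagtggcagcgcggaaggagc
Mcm7: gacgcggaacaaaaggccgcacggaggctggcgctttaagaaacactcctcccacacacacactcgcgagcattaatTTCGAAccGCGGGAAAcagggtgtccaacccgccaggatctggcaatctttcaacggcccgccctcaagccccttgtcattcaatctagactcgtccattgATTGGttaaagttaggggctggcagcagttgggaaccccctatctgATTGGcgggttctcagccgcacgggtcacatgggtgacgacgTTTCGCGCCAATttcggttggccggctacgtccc
In *Mki67* the capitals are 2 CHR and 3 CCAAT matches, in *Top2a* 4 and 6, and in *Bub1* 1 and 2, where ATTGG and TTCAAA are the motifs read on the other strand. In *Mcm6* they are 3 E2F matches, of which the 2 upstream overlap as TTTGGCGCGAAA, and 2 CCAAT matches. In *Mcm7* they are 1 CHR, 2 E2F and 3 CCAAT matches, of which 1 E2F and 1 CCAAT match share a base. A further *Mcm7* window, at chr5:138171217-138171516 and not printed, held 1 CCAAT match, 0 CHR and 0 E2F matches.

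**Figure D1:**
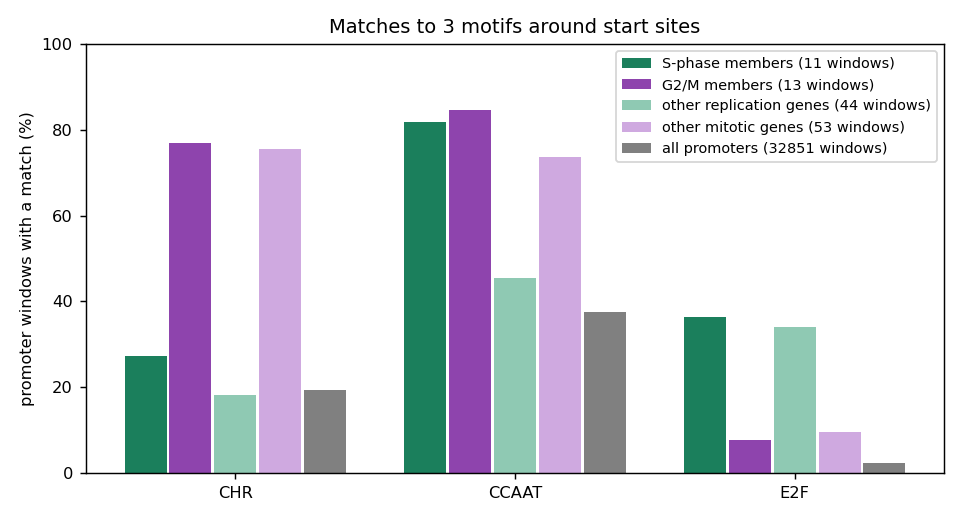
Share of 300-base promoter windows (percent) that hold at least 1 match to the CHR, CCAAT or E2F letters, for S-phase members, G2/M members, replication and mitotic genes outside the 30, and all RefSeq windows. CHR letters stand in 76.9% of G2/M and 27.3% of S-phase windows, and E2F letters in 7.69% of G2/M and 36.4% of S-phase windows.

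Genes outside the 30 had like shares of CHR and E2F letters, but CCAAT was less frequent. It stood in 73.6% of windows of further mitotic genes, against 84.6% of G2/M windows. In further replication genes CCAAT stood in 45.5% of windows, against 81.8% of S-phase windows and 37.4% of all windows. CHR letters stood in 75.5% of 53 windows of further mitotic genes and in 18.2% of 44 windows of further replication genes, and E2F letters in 9.43% of the mitotic and 34.1% of the replication windows. Tested genes that have such a window were also compared by log2 fold change (Rest pKO over control). The 1784 with CHR letters had a median of −0.0157 and the 9182 without them one of −0.00101.

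Between 16936759 and 24134100 counts were obtained per library. Each genotype had 1 library with and 1 nearly without *Xist*, the RNA of the inactive X chromosome of females, which was counted 17 and 12433 times in Rest pKO and 32596 and 9 times in control replicates 1 and 2. The study's methods name more pancreases per genotype than the libraries analysed here, so whether each library is 1 pancreas is not known. The acinar markers searched took 21.9% to 28.0% of the counts, as pancreatic tissue would have. *Rest* itself was at 12.1 and 9.16 CPM in Rest pKO and 14.2 and 15.7 CPM in control libraries (CPM are counts divided by the library total, scaled to 1e+06 and corrected by the TMM factors of edgeR). Its log2 fold change of −0.49 did not pass in edgeR (adjusted p = 0.593), and counts over the whole gene do not measure the deletion of 1 exon in epithelial cells only.

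No gene of S phase, G2 or mitosis differed between genotypes at an adjusted p under 0.05, either in edgeR's quasi-likelihood test (0 of 30, against 0.0275% of all 14550 genes, which is 4 genes) or in DESeq2 (0 of 30, against 0.716% of the 14250 genes with an adjusted p). The lowest adjusted p among the 30 was 0.495 in edgeR and 0.476 in DESeq2, both for *Mki67*. At an unadjusted p under 0.05, 2 of the 30 were lower in Rest pKO (*Mki67* and *Bub1*) and 0 were higher, against 5.61% and 3.26% of all genes. The median log2 fold change of the 30 was 0.00485 and that of all genes −0.00477. The RNA was well measured, with 112 to 4287 counts per gene and library. The 95% interval of the log2 fold change, from the same fit, lay between −1 and 1 for 29 of the 30 genes, so that a change of 2-fold or more lay outside it. The exception was *Ccne2*. Intervals of 28 genes held 0, and the highest bound, that of *Aurkb*, was 0.88.

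**Figure D2:**
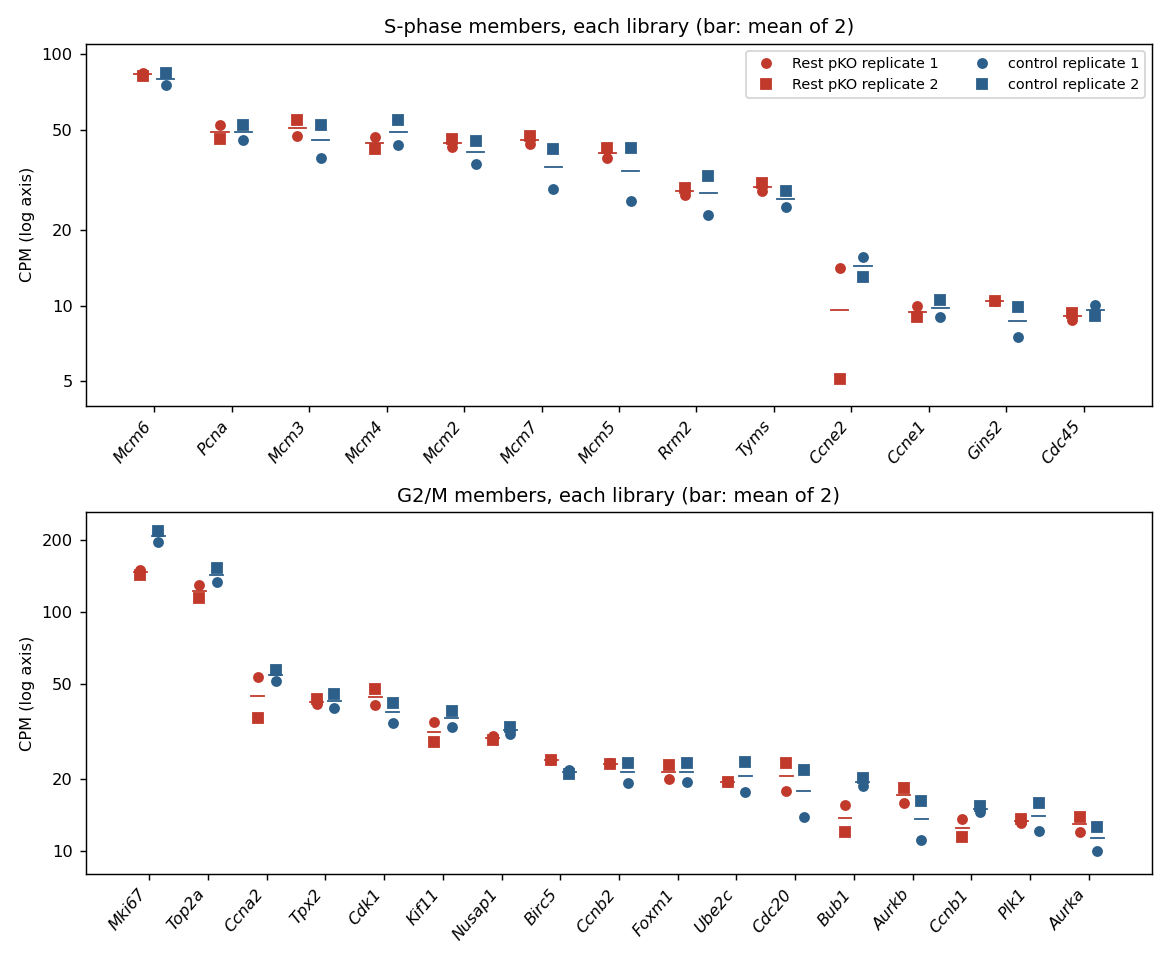
CPM (log axis) of the 13 S-phase and 17 G2/M genes, 1 point per library, with Rest pKO left of control and a bar at the mean of 2. The groups overlap for 22 of the 30 genes, against 8333 of all 14550 genes. *Mki67* stands apart, with both Rest pKO libraries near 146 CPM and both controls near 206 CPM.

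The MCM genes, whose products form the ring-shaped replicative helicase, were at like levels in both genotypes. *Mcm6* was at 84.2 and 82.4 CPM in Rest pKO and 75.2 and 84.0 CPM in control libraries, a log2 fold change of 0.065 (95% interval −0.33 to 0.46). *Mcm7* had the highest log2 fold change of the S-phase genes, at 43.9 and 47.3 CPM in Rest pKO and 29.1 and 42.1 CPM in control libraries. In edgeR the log2 fold change of 0.36 had a standard error of 0.22 and an adjusted p of 0.652. *Mcm7* was higher in each Rest pKO library than in either control, by a small margin over control replicate 2. *Mcm5* was at 38.8 and 42.5 CPM in Rest pKO and 26.0 and 42.4 CPM in control libraries, and *Mcm3* at 47.5 and 54.7 CPM in Rest pKO and 38.7 and 52.2 CPM in control libraries. In these genes control replicate 1 was low and the other control lay among the Rest pKO values. *Mcm2* was at 42.6 and 46.1 CPM in Rest pKO and 36.7 and 45.2 CPM in control libraries. *Mcm4* alone of the 6 had a log2 fold change below 0 (−0.15), at 47.1 and 41.9 CPM in Rest pKO and 43.7 and 54.9 CPM in control libraries. Control replicate 2 had 1.63 times as much *Mcm5* as control replicate 1, more than the ratio of the genotype means, which was 1.19.

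Genes of the replication fork and of nucleotide supply mostly overlapped between genotypes. *Pcna*, the sliding clamp of the DNA polymerases, was at 52.3 and 45.9 CPM in Rest pKO and 45.7 and 52.4 CPM in control libraries, with a log2 fold change of 0.0018 (95% interval −0.42 to 0.42). The 2 genotypes thus held nearly the same pair of levels. *Rrm2*, a subunit of ribonucleotide reductase, was at 27.5 and 29.4 CPM in Rest pKO and 23.0 and 32.9 CPM in control libraries. *Tyms*, thymidylate synthase, was at 28.6 and 30.7 CPM in Rest pKO and 24.6 and 28.7 CPM in control libraries. For both genes the genotypes overlapped, and the Rest pKO libraries lay closer together than the controls. *Cdc45*, which joins the MCM ring in the active helicase, was at 8.76 and 9.38 CPM in Rest pKO and 10.1 and 9.13 CPM in control libraries. *Gins2*, a subunit of the GINS complex, was at 10.4 and 10.4 CPM in Rest pKO and 7.50 and 9.89 CPM in control libraries (log2 fold change 0.26, with an adjusted p of 0.738 in edgeR). *Gins2* and *Mcm7* were the 2 S-phase genes of 13 that were higher in each Rest pKO library than in either control (15.4%, against 21.5% of all genes). None of the 13 was lower in both, against 21.2% of all genes.

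The 2 E cyclins, which start S phase, both had a log2 fold change below 0, with unequal spread between libraries. *Ccne1* was at 9.92 and 9.02 CPM in Rest pKO and 8.99 and 10.5 CPM in control libraries (log2 fold change −0.041). *Ccne2* had levels of 14.1 and 5.10 CPM in Rest pKO libraries, in the order of their numbers, and of 15.7 and 13.01 CPM in control libraries. Rest pKO replicate 1 thus lay between the controls, and replicate 2 at 0.363 times its level, the widest gap between replicates of any of the 30. Its log2 fold change of −0.58 had a standard error of 0.43 and a 95% interval of −1.58 to 0.41 (adjusted p = 0.688 from edgeR). Without Rest pKO replicate 1 the log2 fold change of *Ccne2* was −1.48, so that this value rests on 1 library.

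Among the G2/M genes, *Mki67*, which encodes the Ki-67 protein of the surface of mitotic chromosomes and is the usual marker of cycling cells, had the lowest p. It was at 149 and 143 CPM in Rest pKO and 196 and 216 CPM in control libraries, with means of 146 ± 4.37 CPM in Rest pKO and 206 ± 14.2 CPM in control libraries (SD, n = 2 each). Each Rest pKO library was well below either control. The log2 fold change was −0.50 (standard error 0.18, 95% interval −0.91 to −0.084), and the gene did not pass over all genes tested (unadjusted p = 0.0244, adjusted p = 0.495 from edgeR). *Top2a*, the topoisomerase that untangles replicated chromosomes, was at 129 and 114 CPM in Rest pKO and 132 and 152 CPM in control libraries. Here too the groups did not overlap, but Rest pKO replicate 1 came close to control replicate 1 (log2 fold change −0.23, with an adjusted p of 0.707 in edgeR). In mm9, the build of the counts, *Mki67* spans bases 142881471 to 142908062 of chromosome 7, and *Top2a* bases 98854257 to 98885503 of chromosome 11.

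The mitotic kinase and its cyclins lay on both sides of 0. *Cdk1* was at 40.5 and 47.3 CPM in Rest pKO and 34.3 and 41.7 CPM in control libraries (log2 fold change 0.21, 95% interval −0.24 to 0.66). *Ccna2*, cyclin A, was at 53.2 and 35.8 CPM in Rest pKO and 51.4 and 57.0 CPM in control libraries (log2 fold change −0.29). Rest pKO replicate 1 of *Ccna2* lay between the controls and replicate 2 below them, as for *Ccne2*. *Ccnb1*, cyclin B1, was at 13.6 and 11.4 CPM in Rest pKO and 14.5 and 15.3 CPM in control libraries, below both controls in both (log2 fold change −0.26). *Ccnb2*, cyclin B2, was at 23.2 and 23.0 CPM in Rest pKO and 19.3 and 23.2 CPM in control libraries (log2 fold change 0.12). Cyclin B1 has 3 further copies in the genome, 97.6% to 99.1% identical over at least 1505 bases, and *Pcna* and *Mcm7* have 1 each (99.3% and 97.5%). Only uniquely mapped reads were counted, so levels of these 3 genes may leave out reads that fit a copy as well.

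Kinases of the spindle and of chromosome attachment also lay on both sides of 0. *Aurkb* was at 15.8 and 18.3 CPM in Rest pKO and 11.1 and 16.2 CPM in control libraries, and *Birc5* at 23.9 and 23.9 CPM in Rest pKO and 21.7 and 21.0 CPM in control libraries. Their products are Aurora B and survivin, partners in the chromosomal passenger complex. Their log2 fold changes were 0.32 and 0.16 (adjusted p = 0.692 and 0.767 from edgeR), and *Birc5* was the only G2/M gene that was higher in each Rest pKO library than in either control. *Bub1*, a kinase of the spindle checkpoint at kinetochores, lay below 0, at 15.6 and 11.9 CPM in Rest pKO and 18.7 and 20.1 CPM in control libraries. The log2 fold change of *Bub1* was −0.50, with a 95% interval of −0.99 to −0.0020 (unadjusted p = 0.0493 and adjusted p = 0.561 in edgeR). *Aurka*, the Aurora kinase of centrosomes and spindle poles, was at 12.0 and 13.8 CPM in Rest pKO and 9.94 and 12.6 CPM in control libraries. *Plk1*, the Polo kinase of mitotic entry and exit, was at 13.1 and 13.6 CPM in Rest pKO and 12.1 and 15.8 CPM in control libraries. Both overlapped between genotypes.

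Spindle motors and binding proteins, and genes of the anaphase-promoting complex, overlapped between genotypes, apart from *Nusap1*. *Tpx2*, an activator of Aurora A on the spindle, was at 41.1 and 43.0 CPM in Rest pKO and 39.7 and 45.1 CPM in control libraries (log2 fold change −0.013). *Kif11*, the kinesin that pushes spindle poles apart, was at 34.6 and 28.4 CPM in Rest pKO and 33.0 and 38.4 CPM in control libraries. *Nusap1*, a microtubule-bundling protein of the spindle, was at 30.3 and 29.1 CPM in Rest pKO and 30.9 and 33.0 CPM in control libraries, below both controls by a small margin (log2 fold change −0.11). *Cdc20*, which activates the complex in mitosis, was at 17.8 and 23.4 CPM in Rest pKO and 13.9 and 21.8 CPM in control libraries. *Ube2c*, its ubiquitin-conjugating enzyme, was at 19.3 and 19.4 CPM in Rest pKO and 17.6 and 23.5 CPM in control libraries. *Foxm1*, the transcription factor that drives many genes of this wave, was at 19.9 and 22.9 CPM in Rest pKO and 19.3 and 23.2 CPM in control libraries, with a log2 fold change of 0.0079 (95% interval −0.45 to 0.46). For *Foxm1*, the 2 genotypes thus held almost the same pair of levels.

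**Figure D3:**
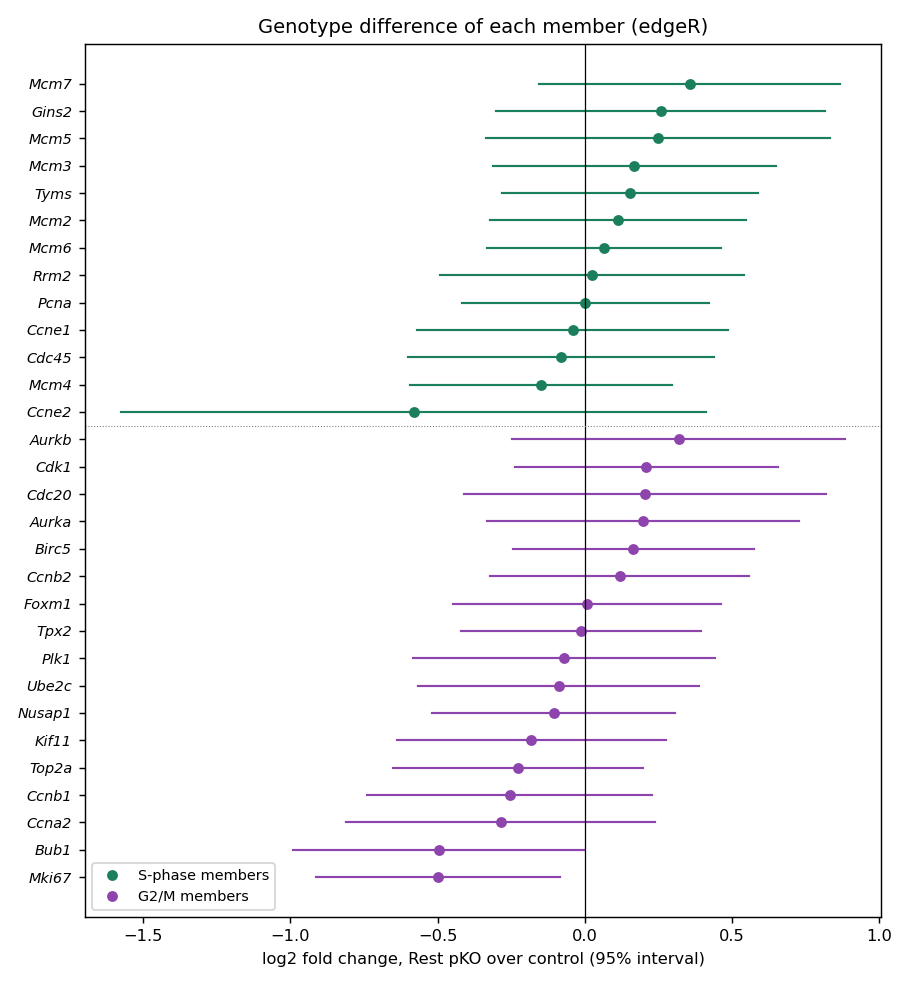
Log2 fold change (Rest pKO over control) of each gene with its 95% interval from edgeR, S-phase genes above and G2/M genes below. Intervals of 28 of the 30 genes cross 0, all but those of *Mki67* and *Bub1*, and the interval of *Ccne2* is the widest.

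S-phase genes lay slightly above G2/M genes in the comparison of genotypes. The median log2 fold change was 0.065 over the 13 S-phase genes (9 above 0, 4 below) and −0.069 over the 17 G2/M genes (7 above 0, 10 below). Of the G2/M genes, 5 were lower in each Rest pKO library than in either control (*Mki67*, *Top2a*, *Bub1*, *Ccnb1* and *Nusap1*; 29.4%, against 21.2% of all genes) and 1 was higher (5.88%, against 21.5%). Because the genes share their libraries and were chosen with results known, the difference of 0.13 between the medians was given no test. It lay between 0.11 and 0.20 under other scalings, filters, tools and covariates and with each library left out.

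Within each library the classes can be set against each other without reference to scaling. Summed over genes, S-phase RNA was 0.699 and 0.731 times the G2/M RNA in Rest pKO replicates 1 and 2, against 0.569 and 0.615 times in control replicates 1 and 2. The ratio was higher in both Rest pKO libraries. *Mki67* and *Top2a* made up 41.3% to 42.6% of the G2/M sum in Rest pKO and 47.4% to 48.6% in control libraries. Without these 2 genes, a choice made after their values were seen, the ratios were 1.22 and 1.25 in Rest pKO against 1.11 and 1.17 in control libraries, and the medians of the classes differed by 0.078. With each gene weighted equally, the mean log2 deviation of S-phase genes minus that of G2/M genes was 0.078 and 0.017 in Rest pKO and −0.060 and −0.034 in control libraries. Without *Mki67* and *Top2a* this difference was 0.064 and −0.0096 in Rest pKO and −0.035 and −0.019 in control libraries, so that Rest pKO replicate 2 lay close to control replicate 2.

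Between the 2 control libraries the classes differed more than between genotypes. Over the S-phase genes the mean log2 deviation from each gene's mean was 0.063 and −0.023 in Rest pKO and −0.16 and 0.12 in control replicates 1 and 2. Over the G2/M genes it was −0.015 and −0.040 in Rest pKO and −0.098 and 0.15 in control replicates 1 and 2. The controls thus lay on either side of both Rest pKO libraries in both classes. Of the 30 genes, 19 had their lowest level in control replicate 1 and 16 their highest in control replicate 2, and 16 of the 17 G2/M genes were higher in control replicate 2 than in 1. The sign of both class medians depended on which control was kept. Without control replicate 1 the S-phase median was −0.036 with 3 of 13 genes above 0, and the G2/M median −0.16 with 4 of 17 above 0. Without control replicate 2 they were 0.27 with 11 of 13 and 0.13 with 10 of 17. The difference between the medians kept its sign, at 0.12 and 0.14.

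**Figure D4:**
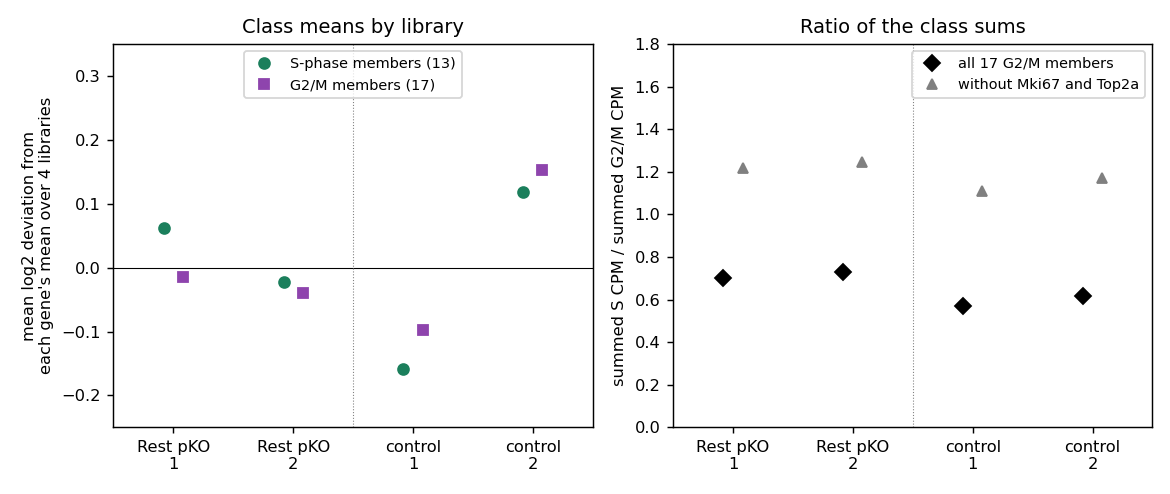
Left, mean log2 deviation of the 13 S-phase and 17 G2/M genes in each library from each gene's mean over the 4 libraries. Right, summed S-phase CPM over summed G2/M CPM, with and without *Mki67* and *Top2a*; control replicates 1 and 2 lie at either end of the class means, while the ratio is higher in both Rest pKO libraries (0.699 and 0.731) than in both controls (0.569 and 0.615).

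Markers of other cells also differed between libraries. Control replicate 2, the library with the most G2/M RNA, had 228 CPM summed over 6 tested erythroid markers, against 57.7 to 85.4 CPM in the other 3 libraries, and 242 CPM over 8 lymphoid and neutrophil markers, against 13.8 to 23.0 CPM. The 4 globin genes searched were at 0 counts in every library. Leukocyte markers summed to 247 and 321 CPM in Rest pKO and 386 and 419 CPM in control libraries (11 of 12 with a log2 fold change below 0), and mesenchyme markers to 4649 and 7282 CPM in Rest pKO and 8720.4 and 7817 CPM in control libraries (8 of 10 below 0). Markers of duct cells and progenitors summed to 1744 and 1463 CPM in Rest pKO and 1572 and 1370.4 CPM in control libraries. Islet hormone genes, of which 8 of 8 lay above 0, summed to 4135 and 6226 CPM in Rest pKO and 2914 and 1956 CPM in control libraries. Endothelial markers, of which 7 of 8 lay above 0, summed to 584 and 602 CPM in Rest pKO and 409 and 522 CPM in control libraries, lowest in control replicate 1. Endocrine progenitor markers (8 of 8 above 0) summed to 88.6 and 59.3 CPM in Rest pKO and 60.2 and 53.8 CPM in control libraries. Acinar markers (12 of 12 above 0) summed to 215329 and 308044 CPM in Rest pKO and 221385 and 205626 CPM in control libraries. In the acinar sum Rest pKO replicate 1 lay between the controls. The part of these cells in the levels of the cycle genes was not tested.

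Transcript length went with the genotype difference. Over 12977 genes tested that have an annotated coding transcript, Spearman's rho between its length and the log2 fold change was −0.35, and it was −0.59 over the 17 G2/M genes and 0.32 over the 13 S-phase genes. These are descriptions across genes of the same 4 libraries. *Mki67* has the longest transcript of the 30, at 10075 bases, and *Top2a* the next, at 5221. Over the 1297 genes with the longest transcripts (median 7791 bases) the median log2 fold change was −0.28, and over the 1300 genes with the shortest (median 981 bases) it was 0.18. With a trend on length removed in each library, the log2 fold change of *Mki67* was −0.15 (unadjusted p = 0.414), that of *Bub1* −0.47 (unadjusted p = 0.0524) and that of *Top2a* −0.085. No gene of the 30 was then at an unadjusted p under 0.05. The class medians were 0.14 for S-phase and −0.066 for G2/M genes, so that the difference between the classes was 0.20 in this fit. Of the 13 S-phase genes 7 then lay above 0, against 9 in the main fit, and of the 17 G2/M genes 7 in both fits. Spearman's rho with length was then 0.51 over the S-phase and −0.20 over the G2/M genes.

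**Figure D5:**
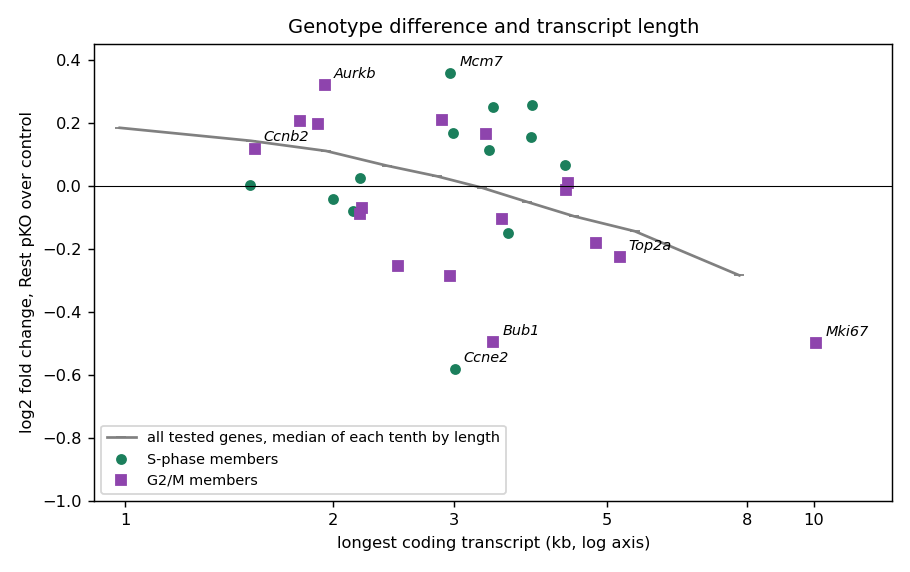
Log2 fold change (Rest pKO over control) against the length of the longest coding transcript (log axis) for the 30 genes, with the medians of 10 classes of all tested genes by length (line). The line falls from 0.18 to −0.28, and *Mki67* lies at the far right at −0.50.

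Further genes of replication and mitosis, listed by function, likewise gave no call. Of 48 more replication genes 26 had a log2 fold change above 0 and 22 below (median 0.013), and 0 passed in edgeR or DESeq2. None was at an unadjusted p under 0.05 in edgeR in either direction. Of the 48, 11 were higher in each Rest pKO library than in either control (22.9%, against 21.5% of all genes) and 6 were lower (12.5%, against 21.2%). *Pold2*, a subunit of DNA polymerase delta, was at 49.6 and 51.3 CPM in Rest pKO and 40.2 and 36.7 CPM in control libraries (log2 fold change 0.39, with an adjusted p of 0.568 in edgeR). *Rfc3* and *Rfc5*, subunits of the clamp loader that sets PCNA on DNA, had log2 fold changes of 0.39 and 0.36. *Atad2*, a chromatin ATPase, was at 36.9 and 25.8 CPM in Rest pKO and 42.4 and 45.6 CPM in control libraries (log2 fold change −0.49). *Hells*, a chromatin remodeller needed for DNA methylation, was at 18.3 and 5.88 CPM in Rest pKO and 21.7 and 21.6 CPM in control libraries (log2 fold change −0.85, with an adjusted p of 0.633 in edgeR), and *2810417H13Rik*, which encodes a PCNA-binding protein, at 28.7 and 17.4 CPM in Rest pKO and 28.7 and 32.8 CPM in control libraries. In all of these last 3 genes Rest pKO replicate 2 was the lowest library, as it was for *Ccne2* and *Ccna2*. With sex as a term *Hells* was called in edgeR (adjusted p = 0.0304). That fit called 247 genes over the whole table, against 4 without the term. Without Rest pKO replicate 1 the log2 fold change of *Hells* was −1.88.

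Of 60 more mitotic genes 25 lay above 0 and 35 below (median −0.053), and 0 passed in edgeR or DESeq2. At an unadjusted p under 0.05, 6 were lower (against 5.61% of all genes) and 1 was higher (against 3.26%). Of the 60, 16 were lower in each Rest pKO library than in either control (26.7%, against 21.2% of all genes) and 5 were higher (8.33%, against 21.5%). *Cenpf*, a kinetochore protein, was at 33.2 and 25.9 CPM in Rest pKO and 42.9 and 44.7 CPM in control libraries (log2 fold change −0.57, with an adjusted p of 0.495 in edgeR). *Aspm*, a protein of spindle poles, was at 21.3 and 14.0 CPM in Rest pKO and 27.4 and 32.5 CPM in control libraries, and *Casc5*, a scaffold of the kinetochore, at 10.4 and 5.56 CPM in Rest pKO and 14.4 and 16.1 CPM in control libraries (log2 fold changes −0.76 and −0.94). These 3, with transcripts of 11137, 9866 and 7800 bases, were lower in each Rest pKO library than in either control. With the length trend removed, the log2 fold change was −0.20 for *Cenpf* (unadjusted p = 0.282), −0.44 for *Aspm* (unadjusted p = 0.0750) and −0.69 for *Casc5* (unadjusted p = 0.0421). Without Rest pKO replicate 1, the log2 fold changes of *Aspm* and *Casc5* were −1.09 and −1.45. *Psrc1*, a microtubule-binding protein with a transcript of 1687 bases, was at 9.55 and 11.3 CPM in Rest pKO and 6.61 and 6.76 CPM in control libraries (log2 fold change 0.64, with an adjusted p of 0.504 in edgeR). *Kif22*, a kinesin that binds chromosomes, and *Fam64a* had log2 fold changes of 0.43 and 0.47. Over the 59 mitotic genes with a length, Spearman's rho with length was −0.56, and −0.22 once the trend was removed.

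Genes of the E2F factors, pocket proteins and MuvB core, which control both waves, lay mostly below 0 (13 of 19, against 7355 of all 14550 genes). Their median was −0.067, and 0 passed in edgeR or DESeq2. At an unadjusted p under 0.05 in edgeR, 1 was lower (against 5.61% of all genes) and 0 were higher (against 3.26%). *E2f2*, an activating E2F, was at 4.64 and 4.15 CPM in Rest pKO and 5.30 and 13.3 CPM in control replicates 1 and 2. Control replicate 2 alone was high, and the log2 fold change of −1.09 had a standard error of 0.42 (adjusted p = 0.528 from edgeR). *Rb1*, the retinoblastoma protein, was at 18.6 and 9.29 CPM in Rest pKO and 21.4 and 18.7 CPM in control libraries, and *Lin54*, the MuvB subunit that reads the CHR, at 11.8 and 7.93 CPM in Rest pKO and 14.0 and 13.4 CPM in control libraries. *Rb1* and *Lin54* were both lowest in Rest pKO replicate 2. *E2f1* was at 16.1 and 20.7 CPM in Rest pKO and 14.5 and 16.8 CPM in control libraries. *Lin37* and *Lin52*, subunits of the MuvB core, had log2 fold changes of 0.30 and 0.38.

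Per length of transcript, the most abundant RNA of the 30 was *Pcna*, at a mean of 32.4 RPKM in Rest pKO and 32.3 RPKM in control libraries (RPKM, CPM per kilobase of the longest coding transcript). *Top2a* followed at 23.3 RPKM in Rest pKO and 27.2 RPKM in control libraries. *Mki67*, first by CPM, was at 14.5 RPKM in Rest pKO and 20.5 RPKM in control libraries. The 6 MCM genes, whose products are present once each in the hexamer, lay within 1.71 and 1.62 times of each other per length in Rest pKO and within 2.27 and 1.56 times in control replicates 1 and 2. *Mcm6* was the highest of them in every library. *Gins2* was the lowest of the 30 in mean level, at 2.67 RPKM in Rest pKO and 2.23 RPKM in control libraries, next to *Ccne2* at 3.19 RPKM in Rest pKO and 4.77 RPKM in control libraries. The authors' gene models were not used here, so lengths and RPKM are approximate.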

How the data were processed

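Whole pancreas RNA of 2 Rest pKO and 2 control libraries was analysed. The authors deposited whole-number counts per gene, made from paired-end reads that STAR placed at a single site in mm9 and featureCounts (version 1.5 in the submitters' processing notes) assigned to UCSC gene models. The strand setting is not given in the sources used here, so overlapping genes cannot be told apart.

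The 14550 genes kept by filterByExpr were scaled by TMM, and genotype was tested in edgeR 4.0.16 (glmQLFit, glmQLFTest; R 4.3.3), with Benjamini-Hochberg adjustment over all genes tested at 0.05. Standard errors are the log2 fold change over the root of F, and intervals use t with 7.48 degrees of freedom. Replicates differed beyond counting noise (chi-square per degree of freedom 64.9 in Rest pKO and 23.2 in controls). Neither the labels nor the methods say which pancreas each library came from, so p-values measure only the spread between them. The code was tested on simulated data.

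Lengths were taken from the longest coding transcript of an NCBI build 37 annotation (12977 genes), and copies from minimap2 2.31 (at least 95% identity over 500 bases). Alternatives were DESeq2 1.42.0, edgeR with the size factors of DESeq2, TMM factors computed with acinar and red cell markers left out, limma-voom (limma 3.58.1), no filter or 1 CPM in 2 libraries, a replicate block, sex as a term, removal of a length trend by loess, and leaving out each library. Named are all 30 genes, *Rest*, and up to 3 genes by p in each direction of each further list. The genes, lists and tests were chosen with earlier results of these data known.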

Additional observations from a re-analysis of the deposited data

How the results depend on the processing

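The call of 0 of 30 genes was the same under 12 of the 13 alternatives. *Ccne2* was called only without Rest pKO replicate 1, the fit with the most called genes over the whole table. Of 390 values of the 30 genes under these alternatives, 365 kept their direction and their side of the threshold and 24 changed sign, 20 of them with a library left out. Leaving out each library in turn gave 1 to 514 called genes over the whole table, 0 to 1 called genes among the 30, 0 to 4 lower at an unadjusted p under 0.05, 3 to 11 S-phase and 4 to 10 G2/M genes above 0, and class medians of −0.036 to 0.27 (S-phase) and −0.16 to 0.13 (G2/M). With all libraries, genes called over the whole table numbered 102 with DESeq2, 247 with sex as a term and 2 with the length trend removed, against 4, and genes of the 30 lower at an unadjusted p under 0.05 numbered 1, 1 and 0, against 2. The difference between the class medians was 0.20 with the length trend removed and 0.078 without *Mki67* and *Top2a*, which was added after seeing the data. With the length trend removed, *Pcna*, *Rrm2*, *Ccnb2* and *Tpx2* changed sign, at −0.12, −0.052, −0.0084 and 0.080. With a library left out, log2 fold changes of genes that changed sign ranged over −0.15 to 0.074 for *Ccne1*, −0.097 to 0.10 for *Pcna*, −0.034 to 0.27 for *Mcm2*, −0.036 to 0.40 for *Mcm3*, −0.31 to 0.024 for *Mcm4*, −0.065 to 0.64 for *Mcm5*, −0.017 to 0.15 for *Mcm6*, −0.21 to 0.30 for *Rrm2*, −0.013 to 0.26 for *Ccnb2*, −0.25 to 0.14 for *Plk1*, −0.12 to 0.14 for *Foxm1*, −0.088 to 0.57 for *Cdc20*, −0.29 to 0.13 for *Ube2c* and −0.11 to 0.082 for *Tpx2*. The cause of these changes was not tested. With 3 libraries, 1 genotype has a single library, which is assumed to vary like the others. With the replicate number as a block, 4 genes were called over the whole table and 0 of the 30, 3 of the 30 were lower at an unadjusted p under 0.05, and deviations of same-numbered libraries correlated at 0.0478, so the numbers were not taken to pair the libraries. With 2 libraries per genotype, the intervals of 28 of the 30 genes hold changes in either direction.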
